A study of Arabidopsis thaliana with 2 samples.

Results

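C2H2 zinc finger proteins are a large class of plant transcription factors, and 94 of the 27444 protein-coding genes of *Arabidopsis thaliana* were assigned to them because the product name in the RefSeq TAIR10.1 annotation contains C2H2. Their occupancy by MBD9, a methyl-CpG-binding domain protein that associates with the SWR1 chromatin remodelling complex, was read from the summits of an MBD9 ChIP-seq experiment. A gene was counted as occupied upstream when a summit lay within 1 kb before its annotated transcription start site (TSS), and as occupied in the gene when a summit lay between its annotated ends. The rule used no ChIP value.

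The study mapped where MBD9 sits in the genome. Chromatin of Col-0 seedlings, labelled as shoots at 13 days after germination (DAG), was immunoprecipitated with an anti-FLAG antibody. The MBD9-3xFLAG group carried a T4 transgene with MBD9 under its own promoter, fused to 3xFLAG, in the *mbd9-3* mutant, which the study describes as complemented. The control group was wild-type Col-0 of the same age without a FLAG tag. Each group was represented by 1 library, so every value below comes from 1 IP set against 1 control, with no replicate check and no test between samples. The transgene was a single line, and the tissue was a mix of seedling cell types, so absence of a summit cannot be told apart from binding in a few cells only. The deposited list held 13993 summits in 10348 peaks on 5 nuclear chromosomes. The score of a summit was the −log10 of its q value, with a median of 10.1 and a range of 2.0 to 197. Read depth is unknown here, and the intervals given below cover counting error only.

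A C2H2 finger is a short fold in which 2 cysteines and 2 histidines hold a zinc ion, and one face of it reads bases in DNA. Many plant C2H2 proteins carry the residues QALGGH in the finger, which is a plant form of the DNA-contacting helix, and many end in an EAR motif, a short leucine-rich stretch that recruits corepressors. The family includes regulators of root patterning, shoot gravitropism, floral organ shape, trichomes, acid and aluminium tolerance, and responses to cold, salt and high light. The product name also caught a few proteins that are not classical transcription factors, among them SE, which acts in microRNA processing, and ELF6, a histone demethylase.

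Sequences at 9 upstream summits are given as examples of the promoter DNA recovered. They begin with the INDETERMINATE DOMAIN (IDD) proteins, a group of C2H2 factors named after maize INDETERMINATE1, because this group held the top scores. IDD2, which scored lower, is shown as the closest relative of IDD1. STOP1, STOP2, ZAT12 and AT4G17810 follow. IDD12 (score 40.5) and IDD5 (24.8) scored above MGP (23.3) but are not shown. The 9 are thus neither a ranking nor a sample of all summits, and motif shares over all 23 windows of members are given below. Each run covers the 101 bp centred on the summit and reads 5′ to 3′ on the strand of the gene named, from the RefSeq TAIR10.1 genome. Capitals mark CACGTG (G-box), ACGTGG (ABRE core), TTGACC (W-box form), TGGGCC (site II element) and GAGAGA, or their reverse complements.
AT3G45260, summit at −514 bp, chr3:16599275-16599375, minus strand: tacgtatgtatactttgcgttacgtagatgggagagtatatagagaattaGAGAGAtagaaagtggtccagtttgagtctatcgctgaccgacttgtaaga
IDD1, summit at −522 bp, chr5:26645210-26645310, minus strand: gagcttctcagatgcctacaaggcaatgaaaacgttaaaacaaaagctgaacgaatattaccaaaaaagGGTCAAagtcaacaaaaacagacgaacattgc
IDD2, summit at −698 bp, chr3:18839663-18839763, plus strand: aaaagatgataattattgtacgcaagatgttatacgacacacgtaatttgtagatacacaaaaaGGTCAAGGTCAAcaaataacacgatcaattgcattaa
IDD4, summit at −92 bp, chr2:521779-521879, minus strand: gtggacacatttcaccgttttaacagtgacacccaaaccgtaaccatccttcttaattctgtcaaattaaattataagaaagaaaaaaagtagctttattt
MGP, summit at −467 bp, chr1:970751-970851, minus strand: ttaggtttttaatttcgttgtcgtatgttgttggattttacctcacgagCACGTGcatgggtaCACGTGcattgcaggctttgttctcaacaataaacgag
STOP1, summit at −253 bp, chr1:12550036-12550136, plus strand: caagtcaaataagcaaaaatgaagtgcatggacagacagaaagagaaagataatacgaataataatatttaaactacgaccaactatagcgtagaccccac
STOP2, summit at −811 bp, chr5:7655596-7655696, minus strand: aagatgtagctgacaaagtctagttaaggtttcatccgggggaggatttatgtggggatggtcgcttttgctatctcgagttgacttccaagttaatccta
ZAT12, summit at −838 bp, chr5:24101926-24102026, plus strand: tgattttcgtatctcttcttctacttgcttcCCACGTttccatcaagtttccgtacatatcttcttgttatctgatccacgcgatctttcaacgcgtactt
AT4G17810, summit at −906 bp, chr4:9905865-9905965, plus strand: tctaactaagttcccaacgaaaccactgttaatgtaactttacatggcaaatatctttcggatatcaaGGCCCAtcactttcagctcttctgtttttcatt
The MGP window holds the G-box 2 times, and the ZAT12 window holds 1 ABRE core. IDD1 and IDD2, whose proteins were 77.9% identical over 443 aligned residues, both show GGTCAA near the summit, 1 time in IDD1 and 2 times in IDD2. The windows of their other upstream summits, at −904 bp in IDD1 and −172 bp in IDD2, do not hold it. Among upstream summits of other protein-coding genes, 7.62% hold this motif on either strand. The IDD1 run lies in the exon of a long noncoding RNA gene, AT5G09695, whereas the others lie outside annotated exons. STOP1, STOP2 and IDD4 hold none of the motifs marked, which says only that these letters are not in these windows.

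As a class defined by product name, the C2H2 genes had summits about as often as other genes. Upstream summits were present at 19 of 94, or 20.2% (95% Wilson interval 13.3 to 29.4), beside 17.3% of all protein-coding genes. That background share corresponds to 16.3 of 94 genes. The difference from the other 27350 protein-coding genes was 2.91 percentage points (95% Newcombe interval −3.98 to 12.13). Its sign and size rested on the choices made, since within 500 bp 9.57% of the C2H2 genes and 12.4% of the others had a summit. With the 28 listed C2H2 genes that lack C2H2 in the product name added, 32 of 122 genes had an upstream summit (26.2%), a difference of 8.95 points (1.95 to 17.41). That list was written by hand with earlier results of these data known, and 8 of its 13 genes with an upstream summit outside the rule were IDD genes. This difference therefore does not speak for the wider family. In the gene, 11 members had a summit (11.7%, 6.66 to 19.8), beside a background of 13.6%, a difference of −1.94 points (−7.00 to 6.11). At least 1 of both places was occupied in 25 members (26.6%), beside 26.1% of all genes, and both places in 5 members (5.32%), beside 4.88%. A summit within 1 kb past the gene end was present for 10 members (10.6%), beside 12.1%. None of the 3 places held a summit in 64 members (68.1%), beside 67.2%.

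**Figure D1:**
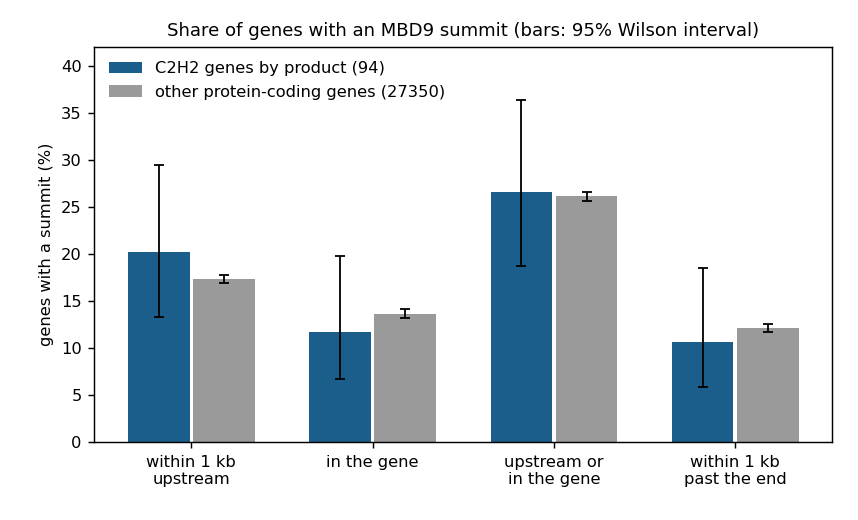
Share of genes (percent, y axis) with an MBD9 summit in each of 4 places (x axis), for the 94 C2H2 genes and for the 27350 other protein-coding genes. Error bars are 95% Wilson intervals, and the upstream shares are 20.2% and 17.3%.

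Members differed from other genes in where they lie. The median C2H2 gene was 1245 bp long, beside 2080 bp for other protein-coding genes, and had 1523 bp of free space before its TSS, beside 716 bp. Per kb of gene, summits in the gene were about as dense (0.0999 per kb in members and 0.0951 in the others). A free kilobase upstream was present for 63 members, and 16 of these had an upstream summit (25.4%, 16.3 to 37.3), beside 19.8% of all 11232 protein-coding genes with such a kilobase. Of the 31 members with less space, 3 had one (9.68%), beside 15.6% of all genes with less space. Free space and occupancy moved together in both sets, and the part of this space in the members' shares was not tested.

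The upstream summits of the members could mostly be given to 1 gene. Of the 23 upstream summits, 21 (91.3%) lay neither in nor upstream of another protein-coding gene, beside 63.2% for the other genes. The exceptions were the summit of AT5G52010, which lies inside the neighbouring gene AT5G52020, and that of DAZ2, a DUO1-activated factor of the male germline, which is also 354 bp upstream of GLUR2. When only summits of a single gene were counted, 18.1% of members and 11.3% of other genes were occupied, a difference of 6.83 points (0.34 to 15.82), larger than with all summits. This count drops summits in or upstream of a neighbouring gene, and other genes had less free space before the TSS (median 716 bp, beside 1523 bp). The count is not read here as a separate sign of higher occupancy, and the part of spacing in the wider difference was not tested.

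Scores of members covered much of the range of other promoters. Upstream scores ran from 5.33 to 91.9 with a median of 13.5 (quartiles 7.05 and 28.1), beside a median of 11.2 for the other upstream summits. A score of at least 10 upstream was reached by 12 members (12.8%), beside 10.2% of all genes, and a score at or above the 75th percentile of all summits (20.8) by 5 members (5.32%), beside 5.45%. Those 5 were AT3G45260, IDD1, ZAT12, AT4G17810 and MGP. Summits inside members ran from 2.15 to 32.9, with a median of 4.65, beside 7.68 for summits inside other genes. The 95% interval of the members' median (2.38 to 27.5) includes 7.68, and their upper quartile was higher (23.9, beside 15.1). A summit in the gene with a score of at least 10 was present in 6.38% of members and 6.79% of other genes. Of the 16 summits in members, 9 lay in coding exons (56.2%, beside 41.4% in other genes), 4 in 5′ UTRs, 2 in 3′ UTRs and 1 in an intron.

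The members' upstream summits were spread over the whole kilobase. They lay between −913 and −13 bp, with a median of −522 bp. The 95% interval of this median (−811 to −253 bp) includes the median of other genes, −335 bp. The outermost bin of the window, 751 to 1000 bp, held 9 of the 23 (39.1%), beside 17.8% for the other genes, and the bin within 250 bp of the TSS held 6 (26.1%), beside 42.9%. The 9 distal summits belonged to IDD1, ZAT12, AT4G17810, STOP2, AT2G28710, AT4G12450, DAZ2, AT3G46070 and AT5G52010.

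**Figure D2:**
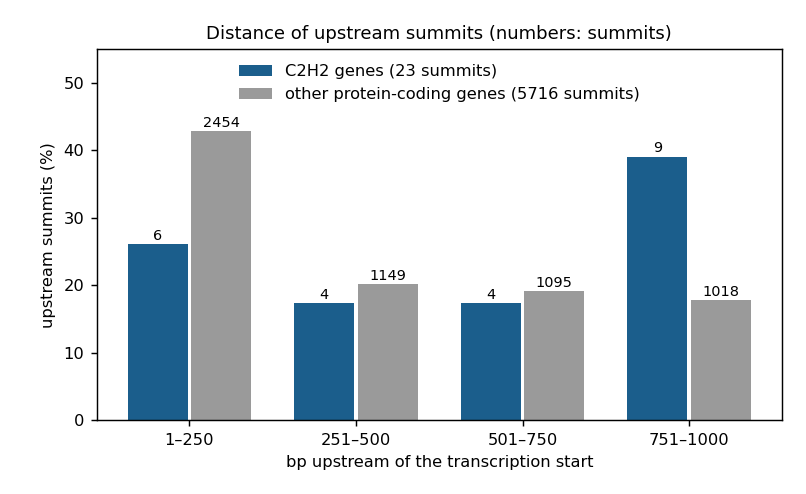
Percent of upstream summits (y axis) by distance from the TSS in bp (x axis), for 23 summits of C2H2 genes and 5716 of other protein-coding genes, with the number of summits above each bar. The bin of 751 to 1000 bp holds 39.1% of the C2H2 summits and 17.8% of the others.

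IDD proteins held the highest scores. AT3G45260 had a single upstream summit, with a score of 91.9 at −514 bp, above 99.1% of all summits in the list, and a second summit with a score of 16.3 in its 3′ UTR, 2176 bp after the TSS. The annotation gives this locus no name, but its protein was 58.9% identical to IDD7 over 348 residues. IDD1 (also ENY), known as a regulator of seed maturation and light responses, had a score of 64.5 at −522 bp and one of 37.1 at −904 bp, both from a peak with 3 summits. MGP, a factor of root ground tissue patterning that acts with SHORT-ROOT and SCARECROW, had 1 summit with a score of 23.3 at −467 bp, with 5536 bp of free space before its TSS.
The other IDD members with a summit scored lower. SGR5 (IDD15), needed for shoot gravitropism, had a score of 10.8 at −13 bp and 2 weak summits near its 3′ end (3.04 and 5.1). AT1G14580, 70.8% identical to IDD4, had 10.3 at −541 bp and a stronger summit of 32.9 in a coding exon at 1681 bp. NUC, JKD and AT5G60470 had no summit upstream or in the gene. For JKD, only 68.4% of the upstream kilobase is unique at 50 bp, and the authors kept uniquely mapped reads only, whereas the upstream kilobases of NUC and AT5G60470 are 100% unique.

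The product rule split this group, so the rest of it was counted from a hand-written list of 66 C2H2 genes, 28 of which lack C2H2 in the product name. The group was taken as the 12 genes named IDD in the annotation and 4 more whose proteins were at least 50% identical to one of them over at least 250 residues, a grouping made after the values were seen. Of these 16 genes, 8 were members. An upstream summit was found at 13 of the 16 (81.2%, 57.0 to 93.4), at 5 of the 8 members and at all 8 genes outside the rule, beside the background of 17.3%. Best scores ran from 8.63 (IDD7) to 94.4 (IDD4), with a median of 18.6. IDD4 is 763 bp from its upstream neighbour and had its top summit at −92 bp. IDD12 had 40.5 at −189 bp. IDD5, IDD14, IDD16, IDD11 and IDD2 had 24.8, 18.6, 17.7, 16.8 and 13.2. A summit in the gene was found at 9 of the 16, beside 13.6% of all protein-coding genes. The strongest was in IDD5, with a score of 106 in its 3′ UTR. The 16 genes were longer (median 2900 bp) than members (1245 bp) and all protein-coding genes (2078 bp), and 12 of them had a free kilobase upstream. The part of gene length in the count of summits in the gene was not tested.
Close IDD relatives did not share their occupancy in every case. MGP and NUC were 74.7% identical over 451 residues, and only MGP had a summit. AT3G45260 and AT5G60470 were 61.2% identical over 430 residues, with a score of 91.9 at the former and no summit at the latter. IDD1 and IDD2 each had 2 upstream summits, and IDD14 and IDD16, 73.1% identical, also had 2 each. Without the 8 IDD members, 14 of 86 members had an upstream summit (16.3%, 9.95 to 25.5), a difference of −1.03 points from the other protein-coding genes (−7.37 to 8.20).

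**Figure D3:**
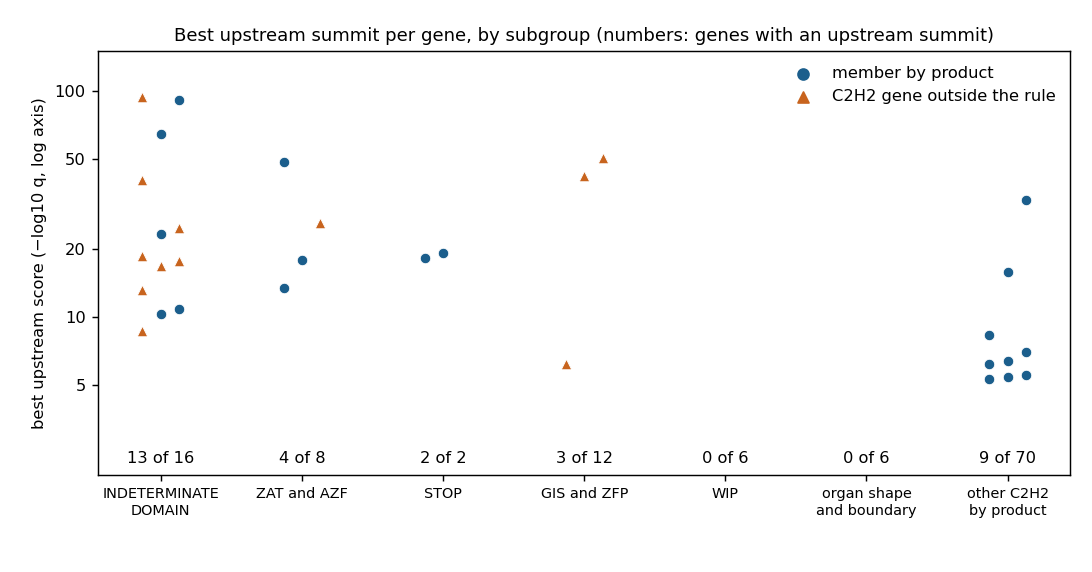
Best upstream score of genes with an upstream summit (−log10 q, log axis) by subgroup, with circles for genes in the product rule and triangles for listed C2H2 genes outside it. The listed genes TFIIIA (best upstream score 25.5) and REF6 (no upstream summit) are in no subgroup and are left out. The numbers give genes with an upstream summit of all genes in the subgroup, from 13 of 16 in the IDD group to 0 of 6 among WIP genes and among genes of organ shape and boundary.

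Stress-related ZAT genes, which encode short proteins with a pair of fingers and an EAR motif, had summits at several members. ZAT12 (annotated as RHL41), which responds to high light, cold and oxidative stress, had scores of 48.8 at −838 bp, 38.5 at −18 bp and 27.6 in its coding exon at 539 bp. It was the only member with 2 upstream summits that also had one in the gene. ZAT7 had 17.8 at −615 bp and 10.8 at −162 bp, and ZAT11 had 13.5 at −123 bp. These were 3 of 3 members with a ZAT or AZF name in the annotation, or 3 of 4 with DAZ3, which was listed with them and had no summit, beside the background of 17.3%. Grouping by name leaves out related members. Among these, AT3G46070 and AT2G28710 had an upstream summit, whereas AT3G46080 and AT3G53600 had none. The counts by name thus do not describe the ZAT family as a whole.
Among the 5 such genes outside the rule, the summits lay in the gene more often than upstream. AZF2 (annotated as ZF2), a repressor in abscisic acid and salt responses, had 26.0 at −525 bp and 24 at −951 bp, and 23.1 in a coding exon. Both upstream summits also lie within 1 kb upstream of the neighbouring gene BUB3.1, and the one at −951 bp is nearer to BUB3.1. They cannot be given to AZF2 alone, and AZF2 is kept in the counts below. ZAT6 and ZAT10 (annotated as STZ), which act in phosphate and salt responses, had no upstream summit, but 2 each in the gene, of which one lay within 13 bp after the TSS. AZF1 had 20.5 in its 3′ UTR, and AZF3 had none. In all, 4 of the 8 genes named ZAT or AZF had an upstream summit (95% Wilson interval 21.5 to 78.5%), beside 17.3% of all protein-coding genes. A summit upstream or in the gene was present at 7 of the 8, beside 26.1%. With DAZ3 the upstream count was 4 of 9 (44.4%, 18.9 to 73.3).

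A cluster of related genes on chromosome 3 shows the occupancy gene by gene. AT3G46070, AT3G46080 and ZAT7 lie in a row on the minus strand, with 1 other protein-coding gene between the last pair. ZAT7 and AT3G46080 were 91.9% identical over 161 residues, yet ZAT7 had 2 upstream summits and AT3G46080 none. The summit of AT3G46070 was weak (5.42 at −913 bp) and lies 644 bp past the end of AT3G46080. ZAT11 and its closest relative AT3G53600 (65.7% identical) differed likewise, with 1 and 0 summits. The other adjacent members, among them SUP and URO, had no upstream summit.

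STOP1 and STOP2, the regulators of proton and aluminium tolerance, were both occupied. STOP1 had a score of 18.3 at −253 bp and one of 7.1 at −13 bp, and STOP2 (AT5G22890) had 19.2 at −811 bp. Their proteins were 43.8% identical over 290 residues. Both have over 2 kb of free space upstream, 4094 bp at STOP1 and 2388 bp at STOP2, and none of these summits lay in or upstream of another protein-coding gene.

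Among the other named summits, AT4G17810 scored highest, with 32.9 at −906 bp in a stretch of 10132 bp without an annotated gene before the TSS. Its fingers resembled those of ZFP10 (69.4% identical over 62 residues) and RBE (68.0% over 50), and neither of these had an upstream summit. AT4G35610, closest to DAZ3 (51.0% over 247 residues), had 15.9 at −283 bp. The weaker upstream summits lay at AT2G28710 (8.35), AT2G28200 (7.01), AT1G68360 (6.4), AT4G12450 (6.18), DAZ2 (5.54), AT3G46070 (5.42) and AT5G52010 (5.33). AT4G12450 is the exception among these, since it also had a summit of 27.5 in its coding exon. At least 2 upstream summits were present at 4 members (4.26%), beside 3.28% of all genes, and these were IDD1, ZAT12, STOP1 and ZAT7.
Of the 11 members with a summit in the gene (11.7%, beside 13.6% of all protein-coding genes), 6 had none upstream. AT2G29660 had 30.0 in a coding exon at 1360 bp and AT1G75710 had 22.7 in an intron at 1581 bp. The rest were weak, with 5.95 at AT3G57480, 4.2 at AT4G25610, 3.83 at MBS2 (AT5G16470), named for methylene blue sensitivity, and 2.22 at AT1G02030.

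**Figure D4:**
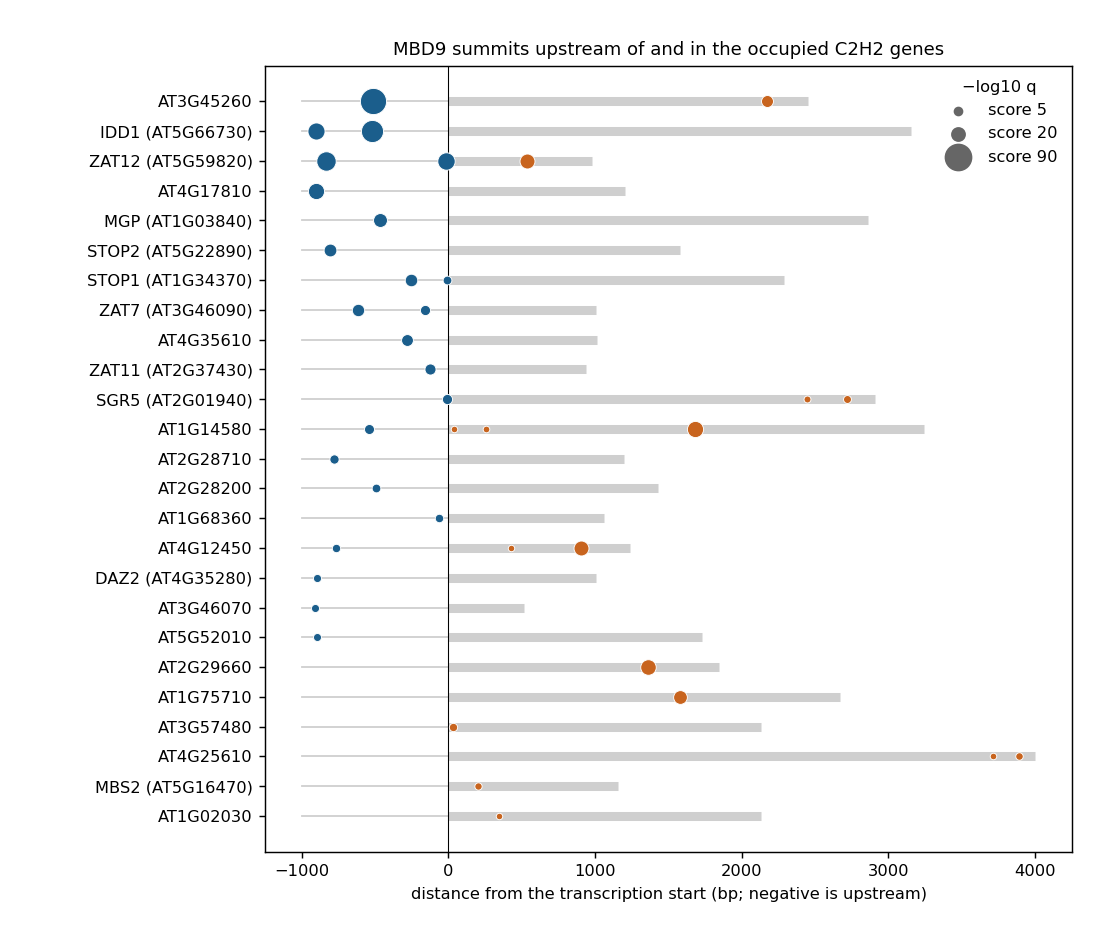
Summits of the 25 occupied C2H2 genes by distance from the TSS in bp (x axis), with blue circles upstream and orange circles in the gene, scaled by score (−log10 q), and grey bars for gene length. Genes are ordered by their best upstream score, from 91.9 at AT3G45260 to 5.33 at AT5G52010, followed by the 6 genes occupied in the gene only.

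Several well-known members had no summit upstream or in the gene. None of the 6 genes of organ shape and boundary was occupied: SUP and RBE, which set floral organ borders and petals, JAG and NUB, which promote growth of lateral organs, KNU, which ends floral stem cell activity, and LATE, a regulator of flowering time listed with them (0 of 6, which allows a share of up to 39.0% by the Wilson interval). The same held for the 6 WIP genes, namely DOT5, TT1 and NTT among the members and WIP3, WIP4 and WIP5 outside the rule, which act in veins, seed coat colour, fruit and root. Of all protein-coding genes, 17.3% had a summit upstream and 26.1% had one upstream or in the gene. Both shares lie below 39.0%, so a count of 0 of 6 does not set either group apart from all protein-coding genes. The trichome genes GIS and GIS2 had none, whereas ZFP8, outside the rule, had 50.6 at −833 bp. SE, SUF4, ELF6, YY1, URO, DAZ1, DAZ3, AT2G45120, AT3G60580 and AT5G03510 also had none. For SUF4, which acts with FRIGIDA in flowering, 86.5% of the upstream kilobase is unique at 50 bp. Expression was not measured here.
In all, 69 members had no summit upstream or in the gene. Their TSS lay a median of 5347 bp from the nearest summit, beside 6682 bp for the 20218 other genes without one. Only 3 of them had a summit 1 to 2 kb upstream (4.35%, beside 6.75%), and 5 had one past the gene end (7.25%, beside 9.14%). With counts this small, these shares do not set the members apart.

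Protein features that the rule did not use separated the members only in part. The finger count used C, 2 to 4 residues, C, 12 residues, H, 3 to 5 residues and H, which misses variant fingers such as the later ones of IDD proteins. Of 19 members with 2 such fingers, 6 had an upstream summit (31.6%, 15.4 to 54.0), beside 11 of 56 with 1 finger (19.6%) and 1 of 14 with 3 or more (7.14%). QALGGH was present in 43 members, and 9 of these were occupied upstream (20.9%), beside 10 of the 51 without it (19.6%). An EAR-like motif gave 11 of 47 (23.4%) with it and 8 of 47 (17%) without it. The combination typical of ZAT proteins, with 2 fingers, at least 2 QALGGH and an EAR motif, was present in 11 members, 5 of them occupied (45.5%, 21.3 to 72.0). The interval of this combination lies above the background of 17.3%, and those of the other feature groups given here include it. Its occupied members include ZAT12, ZAT7 and ZAT11, whose summits are given above, so it is no separate sign of higher occupancy. The 5 ZAT and AZF genes outside the rule encode proteins with the same combination, and only 1 of these 5, AZF2, had an upstream summit. None of these differences between groups of members was tested.

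The sequence around the members' upstream summits had the base composition of other upstream summits. Within 50 bp the GC content was 37.4% ± 6.52 (SD, 23 windows), beside 37.4% ± 7.63 at 5076 other upstream summits and 32.2% ± 7.28 in the 101 bp before every protein-coding TSS. GAGAGA on either strand was in 4 windows (17.4%), those of AT1G14580, SGR5, AT3G45260 and AT3G46070, beside 10.6% of other summits and 9.99% of TSS windows. The G-box was in 1 window (4.35%), that of MGP, beside 11.1% and 3.63%. ACGTGG was in both ZAT12 windows and no others (8.7%, beside 10.8% and 4.45%), TTGACC in 1 (IDD1; 4.35%, beside 7.62% and 5.37%) and TGGGCC in 1 (AT4G17810; 4.35%, beside 5.79% and 8.9%). TATAAA was in 2 windows (8.7%, beside 14% and 26.1%) and a run of 6 A in 6 (26.1%, beside 26.8% and 35.2%). The telo box AAACCCTA was in none, beside 0.67% of other summits. With 23 windows, 1 window is 4.35%, so none of these shares was measured finely enough to set the members apart. A match is a description of letters and names no bound factor.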

How the data were processed

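The deposited file lists ChIP-seq summits, called by the authors on 1 MBD9-3xFLAG library against 1 wild-type FLAG library. Per the study's methods and the submitters' processing notes, reads were aligned to TAIR10 with Bowtie, unique reads were kept, duplicates were removed with SAMtools, and peaks were called with MACS2 2.1.1 at a q value of 0.01 and an extension size of 200 bp. The score the authors deposited is the −log10 q value. Read totals were not used here, so depth is unknown and weak binding may be missed.

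Genes, products and sequence came from RefSeq TAIR10.1, and all summits lay within its chromosome lengths. Gene starts may differ from those in the annotation of the study. Summits were counted by position in Python 3.11.15 (NumPy 2.4.6, SciPy 1.17.1), and the counting was tested on simulated data. Wilson and Newcombe 95% intervals cover counting error only, and neighbouring genes can share a summit. No test was made, because genes are not replicates and each group has 1 library. Protein features and identities came from annotated coding sequences, translated and aligned with Biopython 1.88, over the 94 members and the 28 listed genes outside the rule. A region counted as uniquely mappable when at least 90% of its 50-mers were unique in the genome.

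Every member with an upstream summit, every member occupied in the gene only and every unoccupied member on the hand-written list was named. The members, the list and the subgroups were chosen with earlier results of these data known. Alternatives changed the window, the score limit, the summits per peak, the TSS, mappability, shared summits and the product names. The restriction to genes with a free upstream kilobase and the omission of the IDD group were chosen after seeing the data.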

Additional observations from a re-analysis of the deposited data

How the results depend on the processing

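No paired analysis was possible because the IP and the control are 1 library each, and no replicate could be left out. Of 62 values under 13 alternative settings, 52 kept their direction and lay within the 95% interval of the reported value, which is wide for the differences. The upstream difference, 2.91 points as reported, ranged from 0.77 points with 2 kb to 5.59 with a free upstream kilobase, 6.83 with summits of a single gene and 8.95 (1.95 to 17.41) with the listed genes added. The difference in the gene, −1.94 points, ranged from −0.36 to −4.34 where it kept its sign. With 500 bp upstream, the share of C2H2 genes with an upstream summit was 9.57%, its difference from other genes turned to −2.82 points and the median distance to −142 bp. With a score of at least 10, and likewise with one at or above the median, the upstream share was 12.8% and the share with a summit in the gene 6.38%. The difference for summits in the gene turned to 4.11 points when products with C2HC or superfamily were left out, and to 5.24 points when the listed genes outside the rule were added. The upstream difference turned to −1.03 points without the IDD group, an alternative chosen after seeing the data. Moves in the shares under a shorter window or a higher score limit follow from fewer summits being counted. For the turns of sign, that with 500 bp included, the cause was not tested. With 94 genes, a share has an interval of over 10 points, and read depth is unknown.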

Other observations

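The C2H2 genes of the hand-written list that lie outside the product rule had summits at a higher share than its members. Of the 28 listed genes outside the rule, 13 had an upstream summit (46.4%, 95% Wilson interval 29.5 to 64.2), beside 20.2% of members and 17.3% of all protein-coding genes. A summit upstream or in the gene was present at 17 (60.7%), beside 26.6% of members and 26.1% of all. All 8 IDD genes outside the rule were among these 13. The others were AZF2, ZFP8 (50.6), ZFP7 (42.1 at −666 bp), TFIIIA, a factor of 5S ribosomal RNA transcription (25.5 at −302 bp), and ZFP3 (6.18). The upstream summits of AZF2 and TFIIIA also lie within 1 kb upstream of the neighbouring genes BUB3.1 and dNK. Both genes thus count among the 13 through shared summits only. ZFP4 had no upstream summit but a score of 53.3 in an intron. ZFP1, ZFP2, ZFP5, ZFP6, ZFP10 and ZFP11 had no summit upstream or in the gene, and REF6, a histone demethylase related to ELF6, had one past its end only. The listed genes have names because they were studied, and the list was written with earlier results of these data known. They are therefore not a sample of the family or of the genes that the rule missed. The difference from the members was not tested.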
